A study of Mus musculus with 13 samples.

Results

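Genes of cytosolic DNA sensing and of the enzymes that keep DNA and RNA–DNA hybrids from accumulating were read in RNA of Yumm1.7 cells, an established mouse melanoma line. The 10 members are Tmem173 (STING), Tbk1, Trex1, Ifi203, Ifi204, Ifi207, Mndal, Rnaseh2a, Rnaseh2b and Rnaseh2c, 10 of the 54532 genes in the deposited count table. They were chosen by gene symbol, and all 10 had a row. The study sequenced total RNA after ribosomal RNA removal, RNA precipitated with J2 (an antibody to double-stranded RNA), RNA precipitated with Z22 (an antibody to the Z conformation) and RNA precipitated with IgG as control. Precipitated RNA had first been treated with RNase I, which cuts single-stranded RNA, and with DNase. The cells had the wild-type genotype given for the line and had received DMSO, ADAR1i-124 (12 h at 10 μM), 5-Aza-CdR (72 h at 1 μM), or both compounds. ADAR1i-124 inhibits the RNA editing enzyme ADAR1, and 5-Aza-CdR (labelled 5-AZA-CdR) inhibits DNA methyltransferases. The labels do not give the ADAR1i-124 dose of the combination, but the study's supplement names, after 5-Aza-CdR, the dose and time used for ADAR1i-124 alone, with a lower dose as a further group. The treatment behind the IgG library is not stated in the labels.

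Each condition has 1 library, so differences between treatments have no replicate check and no p-value is given for them. The 12 libraries read here are 3 of total RNA, 4 of J2, 4 of Z22 and 1 of IgG. The total RNA library of the combination was left out because its counts follow the other strand. Library totals were 17015425 to 34571822 counts in total RNA, and 8167960 to 15324595 in precipitated RNA. Values are CPM (counts per 1e6 counts of the library), which can be compared for 1 gene between libraries. Genes averaging 1 CPM or more in the libraries compared entered each comparison, and one that differed by at least 2-fold after adding 0.5 CPM was called higher or lower. Log2 ratios of single genes are given with a 95% interval, which like the detection floor of 3 counts covers counting error only. In the Z22 library of DMSO, 34.9% of all counts lay on 1 ribosomal RNA-like locus, Gm42418, against 10.6% to 15.8% in the other Z22 libraries. The median log2 change of all genes from Z22 DMSO was 0.81 for ADAR1i-124, 1.06 for 5-Aza-CdR and 0.82 for the combination, and Z22 changes from DMSO are therefore also given relative to that median. The J2 and Z22 libraries labelled DMSO also differed from total RNA with DMSO in 15 genes of DNA replication. Their summed level was 496 CPM in J2 and 459 CPM in Z22, against 1711 CPM in total RNA with DMSO. It was 443 CPM in total RNA with 5-Aza-CdR. Low sums were not limited to DMSO among precipitated libraries, since those of the combination were 562 CPM in J2 and 372 CPM in Z22. Whether the labels of the precipitated libraries are right was not tested, and every comparison that uses J2 or Z22 libraries carries that doubt. Of 8 melanocyte markers, Mitf was at 9.68 to 33.1 CPM and Pmel at no more than 0.63 CPM. Tyr and Tyrp1 had no count in any of the 12 libraries, and Sox10, Dct, Mlana and Slc45a2 did not reach 3 counts in any.

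In mammalian cells, DNA in the cytosol is bound by the enzyme cGAS, whose cyclic dinucleotide product activates STING. STING then recruits the kinase TBK1, which phosphorylates IRF3 and so starts transcription of type I interferon. Proteins of the PYHIN family, among them those encoded by Ifi203, Ifi204, Ifi207 and Mndal, bind DNA or regulate transcription, and their genes are themselves induced by interferon. TREX1 digests DNA in the cytosol, while RNase H2, built from subunits A, B and C, removes RNA from RNA–DNA hybrids and single ribonucleotides from DNA. Inherited loss of TREX1, of an RNase H2 subunit or of ADAR1 causes Aicardi-Goutières syndrome, an inflammatory disease with high interferon.

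The 4 PYHIN members lie in 1 cluster on chromosome 1, all on the minus strand (GRCm38). Their positions are chr1:173723427-173741747 for Ifi207, chr1:173747293-173766943 for Ifi204, chr1:173849126-173942491 for Mndal and chr1:173920407-173942672 for Ifi203. The annotated Mndal and Ifi203 genes overlap, and their exons share 37 bases. RefSeq promoter entries on GRCm38.p6, each 250 bases before to 50 after an annotated start, matched 7 members in 10 entries. Tmem173, Ifi204 and Rnaseh2b had no entry. Promoter sequences are shown because the PYHIN genes are induced by interferon, and because 5-Aza-CdR acts on methylation of the dinucleotide CpG. DNA methylation itself was not measured in these libraries. The motif GAAANNGAAA (N is any base), the core of the response element of interferon-stimulated genes, was searched on both strands and was the only motif searched. It was found in 3.44% of 32851 mouse promoter entries (3.99% of genes with an entry), and in 3 of the 7 members with an entry (Ifi203, Ifi207 and Mndal). Of the 9 other PYHIN genes, all of which had an entry, 6 held a match (Ifi205, Ifi206, Ifi208, Ifi211, Ifi213 and Ifi214). A match is a run of letters and not a measured binding site. In the windows that follow, capitals mark the match.

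Ifi203 (chr1:173942498-173942547, minus strand): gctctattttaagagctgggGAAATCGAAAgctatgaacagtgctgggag
Mndal (chr1:173880194-173880243, minus strand): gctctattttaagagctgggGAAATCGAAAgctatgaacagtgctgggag
Ifi207 (chr1:173741821-173741870, minus strand): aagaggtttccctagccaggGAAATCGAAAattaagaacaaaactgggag
Ifi206 (chr1:173491329-173491378, minus strand): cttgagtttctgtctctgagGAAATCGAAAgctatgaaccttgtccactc
Ifi213 (chr1:173599316-173599365, minus strand): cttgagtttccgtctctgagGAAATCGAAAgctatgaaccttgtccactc
Ifi211 (chr1:173913054-173913103, minus strand): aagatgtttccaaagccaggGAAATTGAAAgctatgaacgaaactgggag

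The match began 35 bases before the RefSeq start in Ifi203, 36 in Mndal and 41 in Ifi207. In Mndal that entry, chr1:173880138-173880437, lies inside the gene position given above and not at its 5′ end, 173942491. The other Mndal entry holds a further match, on the opposite motif strand and without a CpG, which is not shown. The windows of Ifi203 and Mndal are the same 50 bases. In Ifi203, Mndal and Ifi207, and in Ifi206 and Ifi213, the match shown contains a CpG, which that of Ifi211 lacks. Of the genes whose windows are not shown, Ifi208 and Ifi214 also hold a CpG in the match, and Ifi205 does not. CpG was otherwise rare in these promoters, with 2 in the Ifi203 entry that holds the match, 2 in Ifi207 and 1 in each Mndal entry. The median promoter entry of the mouse has 7. The Tbk1 promoter, by contrast, had 37 CpG, a number reached by 5.58% of entries, and Rnaseh2a had 23, reached by 21.5%. Rnaseh2c had 9 and the 2 Trex1 entries had 7 and 5. The promoters of Ifi203, with capitals for the match, and of Tbk1 and Rnaseh2a, with capitals for CpG, show this contrast.

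Ifi203 (chr1:173942443-173942742, minus strand): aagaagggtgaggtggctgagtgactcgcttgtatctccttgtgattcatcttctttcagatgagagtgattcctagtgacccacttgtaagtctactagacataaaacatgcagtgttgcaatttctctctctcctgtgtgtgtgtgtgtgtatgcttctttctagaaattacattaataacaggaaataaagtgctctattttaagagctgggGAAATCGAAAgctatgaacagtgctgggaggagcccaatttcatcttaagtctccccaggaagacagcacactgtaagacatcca
Tbk1 (chr10:121586745-121587044, minus strand): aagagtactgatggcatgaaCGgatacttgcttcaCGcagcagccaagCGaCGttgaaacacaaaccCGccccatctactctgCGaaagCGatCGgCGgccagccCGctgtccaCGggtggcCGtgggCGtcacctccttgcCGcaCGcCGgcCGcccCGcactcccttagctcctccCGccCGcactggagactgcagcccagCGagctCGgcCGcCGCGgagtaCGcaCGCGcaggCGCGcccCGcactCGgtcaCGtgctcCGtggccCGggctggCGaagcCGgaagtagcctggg
Rnaseh2a (chr8:84966027-84966326, minus strand): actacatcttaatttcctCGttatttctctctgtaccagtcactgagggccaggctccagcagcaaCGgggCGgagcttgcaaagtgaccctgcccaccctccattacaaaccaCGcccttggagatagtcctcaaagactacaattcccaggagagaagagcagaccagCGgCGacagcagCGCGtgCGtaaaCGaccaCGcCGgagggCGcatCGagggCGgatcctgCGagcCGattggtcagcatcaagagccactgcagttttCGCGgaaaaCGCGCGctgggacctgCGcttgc

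In total RNA of DMSO-treated cells, 9 members had counts and Trex1 had none. Per kilobase of exon, the order of levels was Ifi204 (58.0 CPM per kb), Tmem173 (28.3), Mndal (24.8), Tbk1 (22.9), Ifi203 (21.2), Ifi207 (10.3), Rnaseh2a (6.63), Rnaseh2b (3.96) and Rnaseh2c (2.84). The counting intervals of Mndal (23.5 to 26.0) and Tbk1 (21.8 to 24.1) overlapped, as did those of Tbk1 and Ifi203 (20.4 to 22.1), and the other neighbours in this order did not overlap. With 1 library the spread between cultures behind this order is unknown. Some of these genes can share reads with related copies. Of the 100-base stretches of their transcripts, 10.7% in Ifi204, 6.38% in Mndal, 2.84% in Ifi203 and 0.79% in Ifi207 also occur in another gene, most often Ifi211 for Ifi204 and Ifi205 for Mndal.

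**Figure D1:**
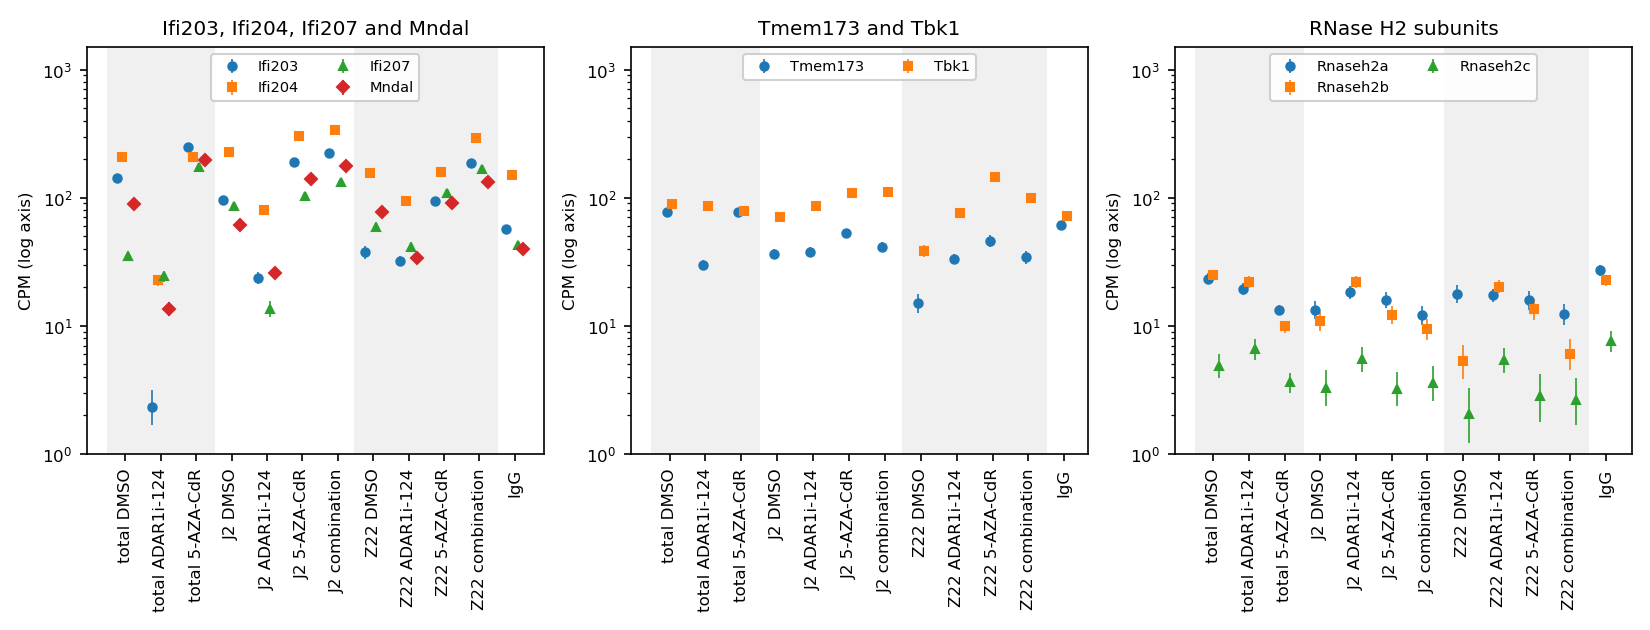
CPM (vertical log axis) of the 9 members with counts in each of the 12 libraries, in 3 panels by role. Points are single libraries, bars are 95% Poisson counting intervals, and shading separates total RNA, J2, Z22 and IgG. Ifi203 stands at 2.33 CPM in total RNA with ADAR1i-124 and at 247 with 5-Aza-CdR.

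The member that differed most from DMSO in total RNA was Ifi203 with ADAR1i-124 and Ifi207 with 5-Aza-CdR, both PYHIN genes. This did not hold for every PYHIN member. Tmem173 differed more than Ifi207 with ADAR1i-124, and Rnaseh2b more than Ifi203, Ifi204 and Mndal with 5-Aza-CdR. Ifi203 was at 142 CPM (2420 counts) in total RNA with DMSO, at 2.33 CPM (41 counts) with ADAR1i-124 and at 247 CPM (8530 counts) with 5-Aza-CdR. Its level with ADAR1i-124 was 61.1-fold lower than with DMSO, a log2 ratio of −5.93 (interval −6.42 to −5.49), and 0.12% of the genes tested lay below it. Ifi204, which encodes the mouse relative of human IFI16, was at 207, 22.8 and 209 CPM in the same order, a log2 ratio of −3.18 (−3.34 to −3.03) with ADAR1i-124. It did not differ from DMSO with 5-Aza-CdR beyond counting error (0.01, interval −0.05 to 0.07). Mndal was at 89.8, 13.6 and 198 CPM, a log2 ratio of −2.73 (−2.93 to −2.53) with ADAR1i-124 and of 1.14 (1.06 to 1.22) with 5-Aza-CdR. Ifi207 stood apart from these 3 with ADAR1i-124, since its 35.3 CPM with DMSO and 24.4 with ADAR1i-124 were within 2-fold of each other (log2 ratio −0.54, −0.72 to −0.36). It had the largest ratio of the members with 5-Aza-CdR, at 174 CPM (2.30, 2.18 to 2.43).

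STING was lower with ADAR1i-124 in total RNA, and its kinase was not. Tmem173 was at 77.7 CPM with DMSO, 30.0 with ADAR1i-124 and 77.3 with 5-Aza-CdR. This was a 2.59-fold lower level with ADAR1i-124, a log2 ratio of −1.37 (−1.52 to −1.23). Tbk1 was at 89.6, 85.9 and 78.6 CPM in the same order, within 2-fold of DMSO in both comparisons. For the RNase H2 subunits, ADAR1i-124 made less than a 2-fold difference in total RNA. Rnaseh2a, the catalytic subunit, was at 23.3 CPM with DMSO and 19.4 with ADAR1i-124, Rnaseh2b at 24.7 and 21.97, and Rnaseh2c at 4.88 and 6.53. With 5-Aza-CdR, Rnaseh2b alone of the 3 passed the 2-fold line. It was at 9.86 CPM (log2 ratio −1.33, −1.54 to −1.12), while Rnaseh2a was at 13.3 (−0.80) and Rnaseh2c at 3.62 (−0.43, −0.84 to −0.01). In bulk RNA, fewer cells that express a gene and less RNA per cell cannot be told apart.

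Counted over the members in total RNA, 9 of 10 passed the filter in each comparison. With ADAR1i-124, 4 members were called lower (Ifi203, Ifi204, Mndal and Tmem173) and 0 higher, where 8.7% of 13693 genes were called lower and 7.71% higher. The median log2 change was −0.53 over the 9 members and −0.09 over all genes tested. With 5-Aza-CdR, 2 members were called higher (Ifi207 and Mndal) and 1 lower (Rnaseh2b), where 17% of 14391 genes were called higher and 8.96% lower. The median log2 change was −0.01 over the members and 0.06 over all genes. The members moved in different directions, so these medians do not describe them singly.

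**Figure D2:**
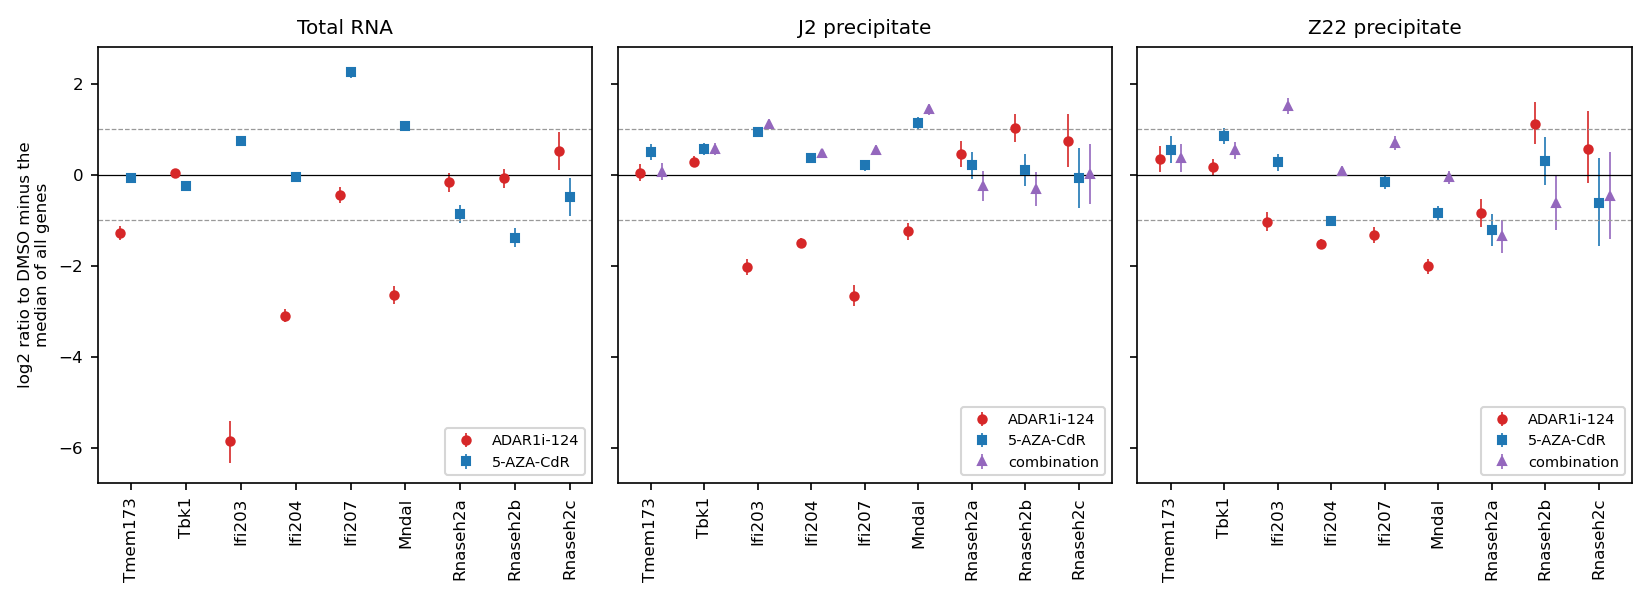
Log2 ratio to DMSO minus the median log2 change of all genes (vertical axis) for the 9 members with counts, in total RNA, J2 and Z22. Points are 1 library against 1 DMSO library, bars are 95% counting intervals, and dashed lines mark 2-fold. The 4 PYHIN members lie below 0 with ADAR1i-124 in all 3 panels, and Tmem173 is below −1 in total RNA alone.

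Trex1 (chr9:109057933-109059734, minus strand) had 0 counts in all 13 libraries, including the one left out. In total RNA with DMSO this allows a level of up to 0.18 CPM in terms of counted reads. The zero cannot be read as absence of the transcript. All 1147 exon bases of Trex1 lie within exons of Atrip on the same strand, and 91.7% of its 100-base stretches are also found in Atrip transcripts, so a read from those stretches fits both genes. Atrip, which encodes the partner of the DNA damage kinase ATR, was at 21.5 CPM in total RNA with DMSO. How such shared reads were counted is not given in the sources used here. Other members overlap less. Rnaseh2c shares 24.8% of its exon bases with Kat5 on the opposite strand, and Rnaseh2a shares 5.04% with Prdx2 on the opposite strand and 9.66% with Gm49661 on its own strand.

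The other PYHIN genes in the table were read beside the members. Of 9, 8 passed the filter in total RNA. With ADAR1i-124, 6 were called lower and 1 higher, where 8.7% and 7.71% of all genes were, with a median log2 change of −3.02. Ifi206 was at 31.5 CPM with DMSO and 0.17 with ADAR1i-124 (3 counts, log2 ratio interval −9.81 to −5.98), Ifi208 at 11.9 and 0.23, Ifi205 at 23.6 and 1.14, Ifi213 at 5.76 and 0.057 (1 count), and Ifi211 at 115 and 19.1 CPM. The exception was Aim2, the sensor that forms inflammasomes on DNA, at 2.53 CPM with DMSO and 6.24 with ADAR1i-124. With 5-Aza-CdR, 7 of the 8 were called higher and none lower, where 17% and 8.96% of all genes were, with a median of 1.84. Aim2 was then at 56.6 CPM, Ifi213 at 50.2, Ifi214 at 10.3 (from 1.70 with DMSO), Ifi209 at 230.4 (from 62.4) and Ifi208 at 43.2 CPM. Ifi211, at 85.7 CPM, was on the lower side of DMSO and within 2-fold. The 7 called higher included Ifi205, whose promoter matches, like that of Ifi211, hold no CpG. Whether CpG in a match goes with these changes was not tested. Ifi211 and Ifi205 share the transcript stretches given above with Ifi204 and Mndal, so their counts may not be separate from those of the members. In J2, 6 of the 8 were called lower with ADAR1i-124 and 0 higher, where 10.8% and 7.37% of all genes were, with a median of −2.83.

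**Figure D3:**
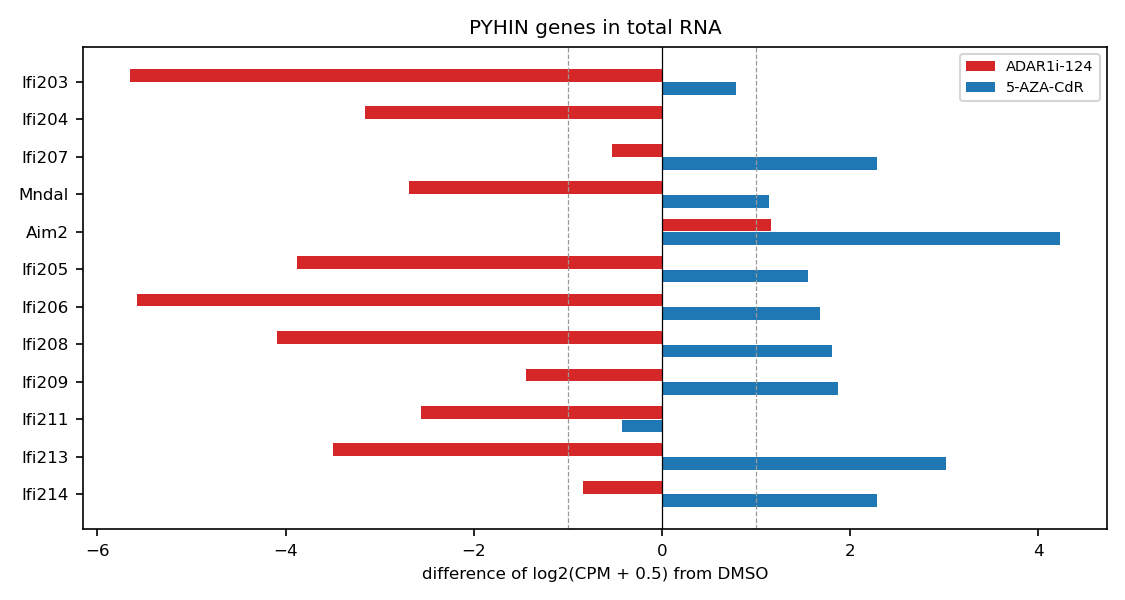
Difference of log2(CPM + 0.5) from DMSO (horizontal axis) in total RNA for the 4 PYHIN members and the 8 other PYHIN genes that passed the filter. Each bar is 1 library against 1 library, and dashed lines mark 2-fold. With ADAR1i-124 the bars point left except for Aim2, and with 5-Aza-CdR they point right except for Ifi211 and for Ifi204, whose bar is near 0.

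Leukocytes express many PYHIN genes, and their markers were therefore read in the same libraries. The summed level of 10 leukocyte markers was 9.64 CPM in total RNA with DMSO, 22.9 with ADAR1i-124 and 99.0 with 5-Aza-CdR. It ranged from 7.29 to 61.1 CPM in precipitated RNA. Most of it came from Cd68, a lysosomal gene, which was at 8.29, 19.5 and 75.4 CPM in the 3 total RNA libraries, and from Laptm5 at 0.999, 2.33 and 18.5. Ptprc, the gene of CD45, did not exceed 1.21 CPM in any library, and Cd3e did not reach 3 counts in any. The 4 endothelial and keratinocyte markers summed to 4.11 CPM with DMSO, 18.2 with ADAR1i-124 and 82.8 with 5-Aza-CdR, nearly all from Cdh5, with Krt5 and Krt14 under 3 counts throughout. In total RNA with ADAR1i-124 both sums were higher than with DMSO while Ifi203, Ifi204 and Mndal were lower. In J2, by contrast, the leukocyte sum was lower with ADAR1i-124 (7.29 CPM) than with DMSO (61.1 CPM), as the PYHIN members were, with Cd68 at 6.46 and 59.6 CPM. The part of these markers in the differences with 5-Aza-CdR and in J2 was not tested.

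Other genes of the STING pathway were called about as often as genes at large in total RNA. Of 19 listed, 17 passed the filter in total RNA. With ADAR1i-124, 2 were called higher and 0 lower, where 7.71% and 8.7% of all genes were, and the median was 0.27, against −0.09 over all genes. They were Tbkbp1, which encodes a TBK1-binding adaptor (1.06 to 7.95 CPM), and Nlrx1 (0.47 to 1.82 CPM). Cgas, the DNA sensor upstream of STING, was at 21.1 CPM with DMSO and 30.8 with ADAR1i-124, and Irf3, the transcription factor downstream of TBK1, was at 25.4 and 37.8 CPM. Neither passed 2-fold. With 5-Aza-CdR, 4 were called higher and 2 lower, where 17% and 8.96% of all genes were. The higher ones were Ikbke, the kinase most closely related to Tbk1 (43.7 to 213 CPM), Tbkbp1 (18.8), Nlrx1 (5.50) and Rhbdf2 (44.9 to 106). The lower ones were Banf1, which competes with cGAS for DNA in the nucleus (111 to 43.7 CPM), and Slc19a1, a carrier of folate and cyclic dinucleotides (27.5 to 9.40 CPM). In J2 with ADAR1i-124, 5 of 17 were called lower (Ikbke, Rhbdf2, Trim56, Nlrx1 and Tbkbp1) and 1 higher, where 10.8% and 7.37% of all genes were. Ifnb1, the gene of interferon beta, had 0.18 CPM with DMSO, no count with ADAR1i-124 and 0.17 CPM with 5-Aza-CdR, at or near the detection floor. Among 10 other DNA sensors, Zbp1 alone was called lower with ADAR1i-124 (25.1 to 0.68 CPM) and none higher. With 5-Aza-CdR, Zbp1 was called higher (111 CPM) and Hmgb1, a chromatin protein that can bind free DNA, was called lower (346 to 97.6 CPM).

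Other nucleases and factors that remove hybrids or stray DNA were read in total RNA too. Of 15 listed, 13 passed the filter with ADAR1i-124, 1 was called lower and 0 higher, a share near the 8.7% and 7.71% of all genes. The lower one was Samhd1, a dNTP hydrolase that is also an Aicardi-Goutières gene (127 to 49.2 CPM). With 5-Aza-CdR, 14 passed, 1 was called higher (Dnase1l3, 0.35 to 1.79 CPM) and 3 lower, where 17% and 8.96% of all genes were. The lower ones were the lagging-strand genes Lig1 (105 to 22.4 CPM), Pcna (195 to 65.5) and Fen1 (46.5 to 16.3). Rnaseh1, the single-subunit RNase H, was at 11.3 CPM with DMSO, 11.01 with ADAR1i-124 and 10.4 with 5-Aza-CdR. Of 3 further Aicardi-Goutières genes, Adar (233 to 58.9 CPM) and Ifih1 (222 to 21.2 CPM) were called lower with ADAR1i-124, and none was called with 5-Aza-CdR. Lsm11 was within 2-fold in both.

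RNase H2 is needed at replicating DNA, and 15 replication genes were read beside its subunits. With 5-Aza-CdR in total RNA, 12 of the 15 were called lower and 0 higher, where 8.96% and 17% of all genes were, with a median log2 change of −2.10. Prim1 was at 46.7 CPM with DMSO and 7.58 with 5-Aza-CdR, Mcm5 at 137 and 24.2, Rrm2 at 189 and 35.6, Mcm6 at 186 and 37.3, and Pola1 at 133 and 26.6 CPM. With ADAR1i-124, 1 was called lower (Gins1, 13.2 to 5.17 CPM) and 1 higher (Cdt1, 19.5 to 45.4 CPM), where 8.7% and 7.71% of all genes were. Summed over the list, the level was 1711 CPM with DMSO, 1531 with ADAR1i-124 and 443 with 5-Aza-CdR in total RNA. The J2 libraries had sums of 496 CPM (DMSO), 1812 (ADAR1i-124), 726 (5-Aza-CdR) and 562 CPM when both compounds were given. In Z22 they were 459, 1552, 920.3 and 372 CPM in that order, and in IgG 1782 CPM. The DMSO libraries of J2 and Z22 therefore had 0.29 and 0.27 times the sum of total RNA with DMSO, while the 3 ADAR1i-124 libraries lay between 0.89 and 1.06 times it.

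**Figure D4:**
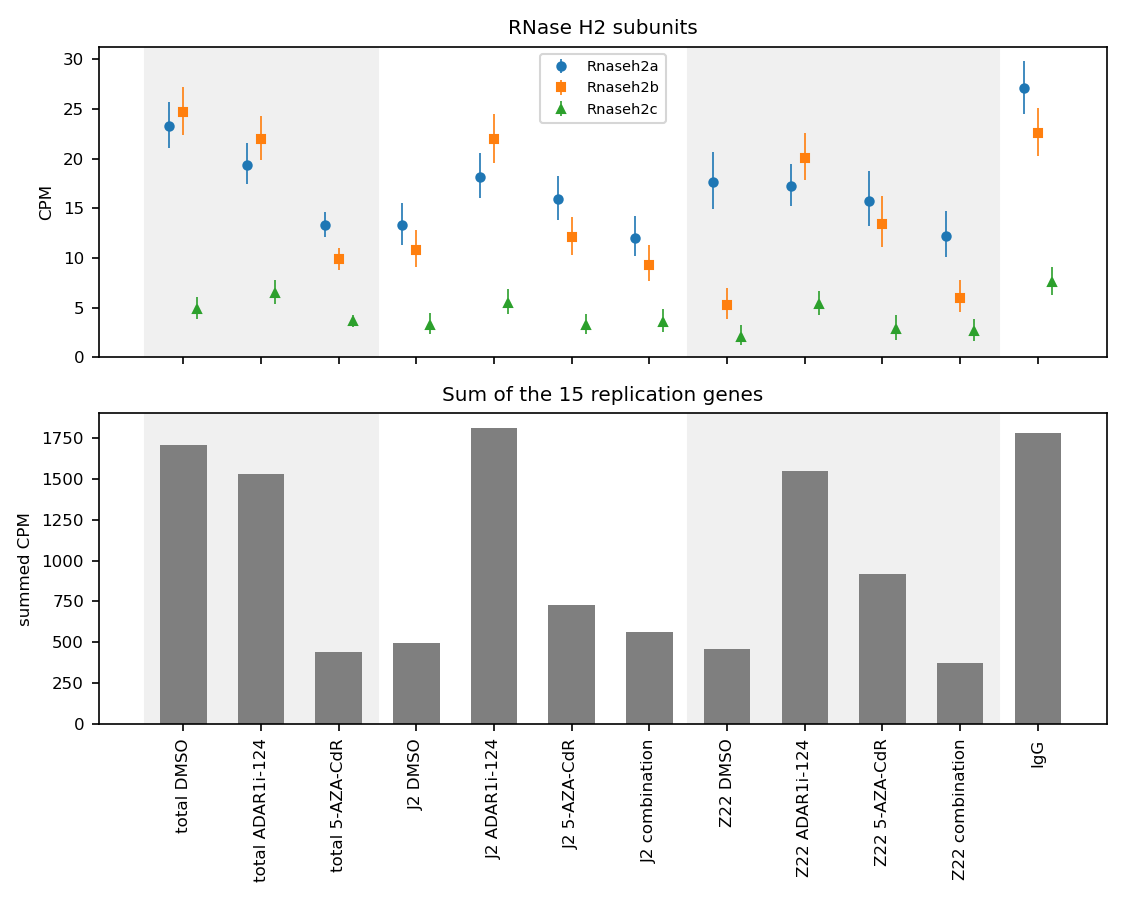
CPM of the RNase H2 subunits (upper panel, points with 95% Poisson counting intervals) and summed CPM of the 15 replication genes (lower panel, bars) in the 12 libraries. Rnaseh2b is highest in the 5 libraries where the replication sum is 1531 CPM or more and lowest, at 5.27 CPM, in Z22 with DMSO.

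The RNase H2 subunits were read against these sums. Rnaseh2b was at 10.8 CPM in the J2 library of DMSO, 21.95 in that of ADAR1i-124, 12.1 in that of 5-Aza-CdR and 9.35 in that of both compounds. In Z22 it was at 5.27, 20.1, 13.5 and 6.01 CPM in the same order, and in IgG at 22.6. Its 5 highest libraries were thus those in which the replication sum was 1531 CPM or more. The same 5 libraries were the highest for Rnaseh2c, which ran from 2.06 CPM (18 counts) in Z22 with DMSO to 7.57 (116 counts) in IgG. Rnaseh2a varied least of the 3, between 12.1 and 27.1 CPM. Over the 12 libraries, Pearson's r of log2(CPM + 0.5) was 0.89 between Rnaseh2b and Rnaseh2c, 0.71 between Rnaseh2a and Rnaseh2b, and 0.67 between Rnaseh2a and Rnaseh2c. These points share cell line, sequencing and, by kind of RNA, preparation, and the values are a description.

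In J2-precipitated RNA, the 4 PYHIN members were again lower with ADAR1i-124 than in the library labelled DMSO. That DMSO library had a replication sum of 496 CPM against 1812 with ADAR1i-124, where 13 of the 15 replication genes were called higher against 7.37% of all genes, and a leukocyte sum of 61.1 CPM against 7.29. The part of these differences and of the label doubt was not tested. Ifi207, which was within 2-fold in total RNA, was at 85.5 CPM in J2 with DMSO and 13.6 with ADAR1i-124, a log2 ratio of −2.65 (−2.88 to −2.43). Ifi203 was at 96.0 and 23.5 CPM (−2.03), Ifi204 at 226 and 80.2 (−1.50) and Mndal at 61.0 and 25.8 (−1.24). These 4 were called lower and 0 members higher, where 10.8% of 13522 genes were called lower and 7.37% higher. Tmem173, at 36.4 CPM with DMSO and 37.5 with ADAR1i-124, did not differ beyond counting error (0.04, −0.14 to 0.23). Rnaseh2b was at the edge of the 2-fold line (1.02 without and 0.99 with the added 0.5 CPM). With 5-Aza-CdR, 1 member was called higher (Mndal, 139 CPM) and 0 lower, where 8.61% and 6% of genes were. Ifi203 was at 190.5 CPM and Ifi204 at 305. With the combination, 2 members were called higher (Ifi203 at 225 CPM and Mndal at 177 CPM) and 0 lower, where 8.21% and 3.88% of genes were. In the same J2 libraries the endothelial and keratinocyte sum was 8.45 CPM for DMSO, 61.6 for 5-Aza-CdR and 60.8 for the combination, and the leukocyte sum was 61.1, 23.6 and 23.8 CPM. The part of these markers was not tested.

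In Z22-precipitated RNA, the calls depended on how the DMSO library with its high Gm42418 share was scaled. With ADAR1i-124, 3 members were called higher (Tmem173, Rnaseh2b and Rnaseh2c) and 1 lower (Mndal), where 42.9% of 12799 genes were called higher and 5.13% lower. Relative to the median of all genes, 1 was higher (Rnaseh2b, 1.03) and 4 lower, namely Mndal (−2.00), Ifi204 (−1.52), Ifi207 (−1.31) and Ifi203 (−1.03). On that scale 17.6% of genes were called higher and 17.5% lower. Ifi204 was at 155 CPM with DMSO and 94.5 with ADAR1i-124, Mndal at 77.8 and 33.8, Ifi207 at 58.9 and 41.4, and Ifi203 at 37.4 and 31.9. Tmem173 was at 15.0 and 33.4 CPM, which relative to the median is 0.32. The replication sum in these libraries was 459 CPM with DMSO and 1552 with ADAR1i-124, where 13 of the 15 replication genes were called higher, 11 of them relative to the median, and its part in these differences was not tested. With 5-Aza-CdR, 4 members were called higher (Tmem173, Tbk1, Ifi203 and Rnaseh2b) and 0 lower, where 52.1% and 4.1% of genes were. Relative to the median, 0 were higher and 2 lower (Rnaseh2a, −1.22, and Ifi204, −1.02), where 18.4% and 19.3% of genes were. With the combination, 4 were called higher (Tmem173, Tbk1, Ifi203 and Ifi207) and 0 lower, where 43.4% and 5.03% of genes were. Relative to the median, 1 was higher (Ifi203, 1.49) and 1 lower (Rnaseh2a, −1.33), where 18.1% and 17.6% of genes were. The leukocyte sum in Z22 was 16.7 CPM with DMSO, 49.0 with 5-Aza-CdR and 61.1 with the combination. That of endothelial and keratinocyte markers was 7.10, 31.5 and 26.2 CPM in the same order. The part of these markers was not tested. Over the 3 comparisons the split of calls was 11 higher and 1 lower by library totals, 2 higher and 5 lower with edgeR's TMM factors, and 2 higher and 7 lower with DESeq2's size factors. With totals that leave out the 20 genes with the highest share, it was 5 higher and 2 lower. Shares of all genes under these other scalings were not computed.

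The combination was also compared with each single compound, without the DMSO libraries but with the same doubt about labels. In J2, the combination was above ADAR1i-124 alone for the 4 PYHIN members, with log2 ratios of 3.29 for Ifi207 (13.6 to 134 CPM), 3.26 for Ifi203, 2.78 for Mndal and 2.07 for Ifi204. Rnaseh2b was lower (21.95 to 9.35 CPM, −1.23). These are 5 of 9 members called, where 20% of 13971 genes were called in either direction. In Z22, the 4 PYHIN members were again higher, by 2.55 for Ifi203 (31.9 to 187 CPM), 2.02 for Ifi207, 1.96 for Mndal and 1.63 for Ifi204, and Rnaseh2b was lower (20.1 to 6.01 CPM, −1.74). Here 5 of 9 were called against 16.2% of 13708 genes. Tmem173 and Tbk1 were within 2-fold in both. Against 5-Aza-CdR alone, 0 of 9 members were called in J2, where 2.08% of 14196 genes were. In Z22 1 was called (Rnaseh2b, 13.5 to 6.01 CPM), where 9.4% of 14365 genes were. Relative to the median of all genes, Ifi203 (1.17) and Ifi204 (1.05) were called higher in that comparison, and Rnaseh2b was not called. On that scale 3.54% of genes were called higher and 4.7% lower. The replication-gene sums given above were lower with the combination than with ADAR1i-124 alone in J2 and Z22, and their part in the Rnaseh2b values was not tested. Markers of other cell types were higher with the combination than with ADAR1i-124 alone, as the PYHIN members were. The leukocyte sum was 7.29 CPM with ADAR1i-124 and 23.8 with the combination in J2, and 14.0 and 61.1 CPM in Z22. The endothelial and keratinocyte sum was 3.61 and 60.8 CPM in J2, and 4.30 and 26.2 CPM in Z22. The part of these markers in the PYHIN differences was not tested.

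Whether the antibodies enriched transcripts of the members was tested across treatments, since treatments can serve as blocks. edgeR's quasi-likelihood test, adjusted by the Benjamini-Hochberg method over all genes tested, called none of the 9 members in any of the 3 comparisons, and DESeq2 called none either. Z22 against J2 over 4 treatments called 0 of 14366 genes (0%), with 3104 at an unadjusted p under 0.05 and 904 called by DESeq2. J2 against total RNA over 3 treatments called 5 of 14988 genes (0.0334%), and Z22 against total RNA called 11 of 14931 (0.0737%). The lowest adjusted p of a member was that of Ifi207, at 0.55 on the log2 scale in Z22 against J2 (SE 0.27, edgeR adjusted p = 0.27). Ifi204 was next, at 1.19 in J2 against total RNA (SE 0.35, edgeR adjusted p = 0.33). The Ifi204 ratio of J2 to total RNA by library totals was above 0 in each of the 3 treatments, at 0.13 with DMSO, 1.82 with ADAR1i-124 and 0.55 with 5-Aza-CdR. Ifi203 had the widest range. Its ratio of J2 to total RNA was −0.57 with DMSO, 3.33 with ADAR1i-124 and −0.37 with 5-Aza-CdR, and that of Z22 to total RNA was −1.93, 3.78 and −1.39. The ADAR1i-124 ratios set 23.5 CPM in J2 and 31.9 CPM in Z22 against the 2.33 CPM of total RNA.

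Against IgG, for which there is 1 library, the precipitated libraries gave no uniform picture. IgG held 57.4 CPM of Ifi203, 151 of Ifi204, 42.8 of Ifi207 and 39.5 of Mndal. Log2 ratios of the J2 libraries to IgG ran from −1.29 to 1.97 for Ifi203 and from −0.61 to 2.16 for Mndal, lowest with ADAR1i-124 and highest with the combination in both. By library totals, Rnaseh2a, Rnaseh2c and Tmem173 were below IgG beyond counting error in all 8 precipitated libraries, and Rnaseh2b in 6. In the J2 and Z22 libraries of ADAR1i-124, Rnaseh2b did not differ from IgG beyond it (−0.04, −0.27 to 0.18, and −0.17, −0.40 to 0.06). The median log2 ratio of all genes to IgG was −0.83 in Z22 with DMSO, where Rnaseh2a, at −0.62, was above that median. In the other precipitated libraries this median ran from −0.05 to 0.18. IgG itself was at 27.1 CPM for Rnaseh2a, 22.6 for Rnaseh2b, 7.57 for Rnaseh2c and 60.8 for Tmem173. Tbk1 was at 72.2 CPM in IgG and at 38.6 to 144 CPM in the Z22 libraries. Since the treatment of the cells behind IgG is not stated, treatment and antibody cannot be told apart in these ratios.

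The genes whose pattern over the 12 libraries was most like that of a member were found by Pearson's r of log2(CPM + 0.5) among 8887 genes averaging 10 CPM or more. For Ifi203 they were Ddx60 (r = 0.99), Gm4951 (0.99) and Gbp4 (0.98). For Mndal they were Lgals3bp (0.99), Zbp1 (0.97) and Ccl5 (0.96), and for Tmem173 Hsd17b11 (0.96), Akr1b10 (0.96) and Fbh1 (0.96). For Rnaseh2b they were Ska2, Plk4 and Asf1b, each at 0.99. Among the members, r was 0.96 between Ifi203 and Ifi204 and 0.74 between Ifi204 and Ifi207, the lowest among the 4 PYHIN members. Between a PYHIN member and an RNase H2 subunit it ran from −0.72 to −0.44. With 12 libraries that share cells and preparation, such values describe these libraries only.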

How the data were processed

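Total RNA and RNA precipitated with J2, Z22 or IgG from Yumm1.7 cells was sequenced in 13 libraries, 1 per condition. Paired reads were aligned by the authors to GRCm38 (mm10 in the submitters' processing notes), using the STAR step of snakePipes, and raw counts per gene were deposited without normalization. The counting tool, its strand setting and its treatment of shared reads are not given in the sources used here. Libraries were assigned by their titles and treatment labels, and the total RNA library of the combination was not used in comparisons. The labels do not say whether libraries came from separate cultures.

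Identifiers were matched without version to GENCODE M21, which gave symbols to 54495 of 54532 genes. From the counts, CPM by library total was computed. With 1 library per condition, genes averaging 1 CPM or more were called past 2-fold after adding 0.5 CPM, and ratios carry exact Clopper-Pearson counting intervals at 95%. Antibody comparisons were fitted with edgeR 4.0.16 (filterByExpr, TMM, treatment as block, quasi-likelihood test, Benjamini-Hochberg over all genes) in R 4.3.3, and with DESeq2 1.42.0 as an alternative. These p-values measure the spread of the antibody difference between treatments. Checked on drawn counts for the Z22 and J2 comparison of 14366 genes, the edgeR step recovered 40 of 100 genes changed 2-fold and 100 of 100 changed 8-fold, with 3 false calls. For J2 against total RNA (14988 genes) it recovered 9 and 100 with 6 false calls, and for Z22 against total RNA (14931 genes) 2 and 96 with 7. The drawn counts used the same dispersion for every gene and no difference between treatments. They do not give the recovery for genes whose ratio varied between treatments as that of Ifi203 did. Its SE was 0.76 in J2 and 1.05 in Z22, each against total RNA.

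The members and gene lists were chosen with earlier results of these data known, and so are not independent evidence. All members were named. Of each list, the genes past 2-fold in each total RNA comparison were named, at most the 5 with the largest change, and Aim2 with ADAR1i-124, Cgas, Irf3, Ifnb1, Rnaseh1, Lsm11, Rhbdf2, Trim56 and the marker genes, which lie outside this rule, were named after their values were seen. Alternatives were other scalings, pseudocounts, filters, a 4-fold line, other test designs, and leaving out each treatment. The change relative to the median of all genes was added after seeing the data. Python 3.11.15 with pandas 2.3.3, numpy 2.4.6 and scipy 1.17.1, and matplotlib 3.10.9, were used for the rest.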

Additional observations from a re-analysis of the deposited data

Results flagged for a closer look

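Some members lay on opposite sides of DMSO in total RNA and in Z22, with counting intervals that exclude 0 in both. Tmem173 with ADAR1i-124 had a log2 ratio of −1.37 in total RNA and of 1.15 in Z22. With 5-Aza-CdR, Tbk1 had −0.19 and 1.90, and Rnaseh2b −1.33 and 1.35. The difference between the kinds of RNA was not tested, since each value rests on 1 library against 1. The median of all genes in these Z22 comparisons was 0.81 with ADAR1i-124 and 1.06 with 5-Aza-CdR, and relative to it the Z22 values are 0.32 for Tmem173, 0.83 for Tbk1 and 0.21 for Rnaseh2b.

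The total RNA library of the combination, which no comparison used, held 349.95 CPM of Rnaseh2a (436 counts), against 23.3 CPM in total RNA with DMSO, and 195 CPM of Rnaseh2c (243 counts), against 4.88 CPM. The other members had 10 counts or fewer there. Prdx2, which overlaps Rnaseh2a on the opposite strand, was at 23.3 CPM in that library and 124.2 CPM with DMSO, and Kat5, which overlaps Rnaseh2c on the opposite strand, at 31.3 and 32.8 CPM. The part of these overlaps in the 2 values was not tested.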

How the results depend on the processing

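Calls of members numbered 7 in total RNA, 7 in J2, 12 in Z22 and 11 in the comparisons of the combination with a single compound, and 4, 2, 1 and 6 at a 4-fold line. These counts pool comparisons, and the shares of all genes by library totals are given above with each. In Z22 those shares were 42.9% to 52.1% called higher. Shares of all genes at the 4-fold line and under the other scalings were not computed, so these counts show only how calls move. The Z22 count was 7 with TMM factors and 7 with totals that leave out the 20 genes with the highest share. DESeq2's size factors gave 9, of which 2 were higher and 7 lower, against 11 higher and 1 lower by library totals. Ifi204 in Z22 with 5-Aza-CdR was at 0.04 by library totals and −1.03 with DESeq2's size factors. Other pseudocounts and filters moved none of these counts by over 1.5 times, and no member called by library totals changed sign. Genes called by edgeR depended strongly on the setting, while none of the 9 tested members was called under any. For Z22 against J2 there were 0, with 904 by DESeq2, 94 with a filter of 10 counts, and 0 to 850 when 1 treatment was left out, the 850 without DMSO. For J2 against total RNA there were 5, with 390 by DESeq2, 38 with the filter of 10 counts, 14 with DESeq2's size factors, 3 with library totals, and 2 to 362 when 1 treatment was left out, the 362 without DMSO. For Z22 against total RNA there were 11, with 310 by DESeq2, 24 with the filter of 10 counts, 7 with library totals, 0 with no treatment block, and 4 to 63 when 1 treatment was left out, the 63 without 5-Aza-CdR and the 4 without DMSO. The cause of these shifts was not tested. No paired analysis by replicate was possible because the labels carry no replicate numbers. Depth limits Rnaseh2c most, with 18 to 125 counts a library.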

Other observations

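Aim2 and Cgas encode sensors of DNA in the cytosol beside the PYHIN members described above. In total RNA, Aim2 was at 2.53 CPM with DMSO, 6.24 with ADAR1i-124 and 56.6 with 5-Aza-CdR, whereas in J2 it was at 10.9 CPM with DMSO and 1.53 with ADAR1i-124, and at 25.5 with 5-Aza-CdR. Its direction with ADAR1i-124 was thus opposite in the 2 kinds of RNA, and the difference was not tested. Cgas in J2 was at 17.4 CPM (DMSO), 31.7 (ADAR1i-124), 19.4 (5-Aza-CdR) and 23.1 CPM when both compounds were given. In Z22 it was at 5.39, 22.8, 21.9 and 11.3 CPM in the same order. With 5-Aza-CdR in total RNA it was at 14.4 CPM, below the 21.1 CPM of DMSO.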
